A study of Mus musculus with 13 samples.

Results

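The genes described here encode the core of the LMO2-TAL1-LDB1 complex and their close paralogues. They were Lmo2 and Lmo4, Tal1 and Lyl1, Ldb1 and Ldb2, the E protein genes Tcf3, Tcf4 and Tcf12, and Ssbp3, chosen by name. These are 10 of the 45250 genes in the deposited expression tables, and all 10 were among the 13802 genes that passed a filter of 1 FPKM in 2 libraries, Lyl1 only through WT HE1. RNAseq was performed on mouse ES cell derived cells of 2 stages. Flk-1+ cells are haemangioblasts, taken from embryoid bodies with magnetic beads against Flk-1, the VEGF receptor encoded by Kdr, with 3 libraries each of WT, Lmo2-/- and Tal1-/-. HE1 is the first haemogenic endothelium, sorted as Tie2+ Kit+ CD41- cells from blast cultures given VEGF and IL-6, with 2 libraries each of WT and Lmo2-/-. WT is the CCB line, and for the cells sequenced here the sources used name 1 ES cell line for each genotype, so a genotype cannot be told apart from its line and the libraries repeat the differentiation only. p-values therefore measure the spread between these libraries.

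LMO2 is a LIM-only protein that does not bind DNA itself. It bridges a bHLH pair, made of the class II factor TAL1 (also called SCL) and a class I E protein, to GATA factors, so that the assembled complex reads an E-box and a nearby GATA motif. LDB1 holds the LIM domains of LMO2 and self-associates, which can bring distant sites together, and SSBP proteins bind LDB1. The complex is known as a master regulator of blood formation, and LYL1, LMO4 and LDB2 are relatives of TAL1, LMO2 and LDB1 that can occupy the same positions in such complexes. The comparisons below address how the partners and the paralogues were expressed when Lmo2 or Tal1 was lost.

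Values are FPKM, which count the fragments of a gene per kilobase of its transcript, scaled for the size of the library, so that levels of different genes can be set side by side. Fold changes are limma estimates on log2(FPKM + 1), which understate the change of low genes. A call needed a Benjamini-Hochberg adjusted p below 0.05 over all 13802 genes together with a group mean over 10 FPKM in 1 or more of the groups compared. The deposited values carry no fragment counts, so depth is unknown. Lmo2-/- HE1 replicate 1 stood apart from the other 12 libraries. It had 9694 genes above 0, against 11861 to 15641, and of the 4062 genes whose median exceeded 10 FPKM it listed 183 at 0, against at most 55 elsewhere. Steps in the values of low genes put 1 fragment of this library at 3.74 times the median worth of a fragment in the others. HE1 results of the 10 genes that were called are given with and without it, and those of genes outside the set only with it. In every HE1 library Tek, which encodes Tie2, was at 121 FPKM or more and Kit at 42.4 or more. Itga2b, which encodes CD41, had 15.4 and 10.4 FPKM in WT HE1, 19.8 in Lmo2-/- replicate 0 and was listed at 0 in Lmo2-/- replicate 1. Kdr ran from 68.7 to 252 FPKM in the Flk-1+ libraries.

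The loss of Lmo2 was seen in Flk-1+ cells and could not be seen in HE1. Lmo2 lies on chromosome 2 of GRCm38 from 103957986 to 103981878. Its FPKM was 22.8, 30.8 and 21.6 in WT Flk-1+ replicates 0, 1 and 2, and 2.63, 6.48 and 2.17 in Lmo2-/-. In Tal1-/- it was listed at 0 in replicate 0 and read 7.58 and 1.29 in replicates 1 and 2. No library of either mutant reached the lowest WT library. In HE1 the WT libraries had 4.30 and 20.6 FPKM, and the libraries labelled Lmo2-/- had 6.42 FPKM and a listing at 0, so that the groups overlapped and HE1 genotypes rest on the labels. Which part of either gene was removed is not given in the sources used here, and an FPKM per gene does not show which exons were read.

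The difference in Lmo2 was -2.55 (SE 0.85) on the log2 scale in Lmo2-/- and -3.26 (SE 0.85) in Tal1-/- Flk-1+ cells, with limma adjusted p = 1 and 0.401. The exact permutation test (two-sided) gave p = 0.10 for both, the smallest that 3 against 3 libraries allow. With both mutants as 1 group the difference was -2.90 (SE 0.73), with limma adjusted p = 0.738. The exact permutation p was 0.0238, the smallest for 3 against 6. Lmo2 is the targeted gene of the Lmo2-/- part of that group, so the pooled p is no test of Lmo2 in Tal1-/- cells. All comparisons with WT Flk-1+ cells use the same 3 WT libraries.

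Tal1, on chromosome 4 from 115056426 to 115071755, encodes the class II bHLH factor that contacts LMO2. Its FPKM was 37.4, 25.6 and 22.0 in WT Flk-1+ cells, 6.51, 29.0 and 6.64 in Lmo2-/- and 2.74, 3.41 and 2.88 in Tal1-/-. Of the Lmo2-/- libraries 2 were well below WT, whereas replicate 1 lay between the WT libraries. The difference in Tal1-/- was -2.84 (SE 0.47, limma adjusted p = 0.101, exact permutation p = 0.10), with no overlap between groups. The Lmo2-/- difference was -1.26 (SE 0.47) with limma adjusted p = 1, and -1.92 with adjusted p = 0.389 without replicate 1. Both mutants as 1 group differed from WT by -2.05 (SE 0.41, limma adjusted p = 0.480). Without Lmo2-/- Flk-1+ replicate 1, the library within the WT range, this was called, at -2.38 and limma adjusted p = 0.0237. The pooled group holds the Tal1-/- libraries, in which Tal1 is the targeted gene, so it is no test of Tal1 in Lmo2-/- cells. In HE1, Tal1 had 37.6 and 27.8 FPKM in WT and 56.2 and 52.2 in Lmo2-/-, both Lmo2-/- libraries above both WT libraries. That difference was 0.73 (SE 0.58) with limma adjusted p = 0.506 and exact permutation p = 0.333, the smallest for 2 against 2. It was 0.78 without Lmo2-/- HE1 replicate 1, 0.50 after rescaling to a common median and 0.18 after quantile normalization. Ranked among the genes tested, Tal1 overlapped, at percentiles 89.3 and 85.7 in WT HE1 and 92.9 and 85.0 in Lmo2-/- HE1.

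**Figure D1:**
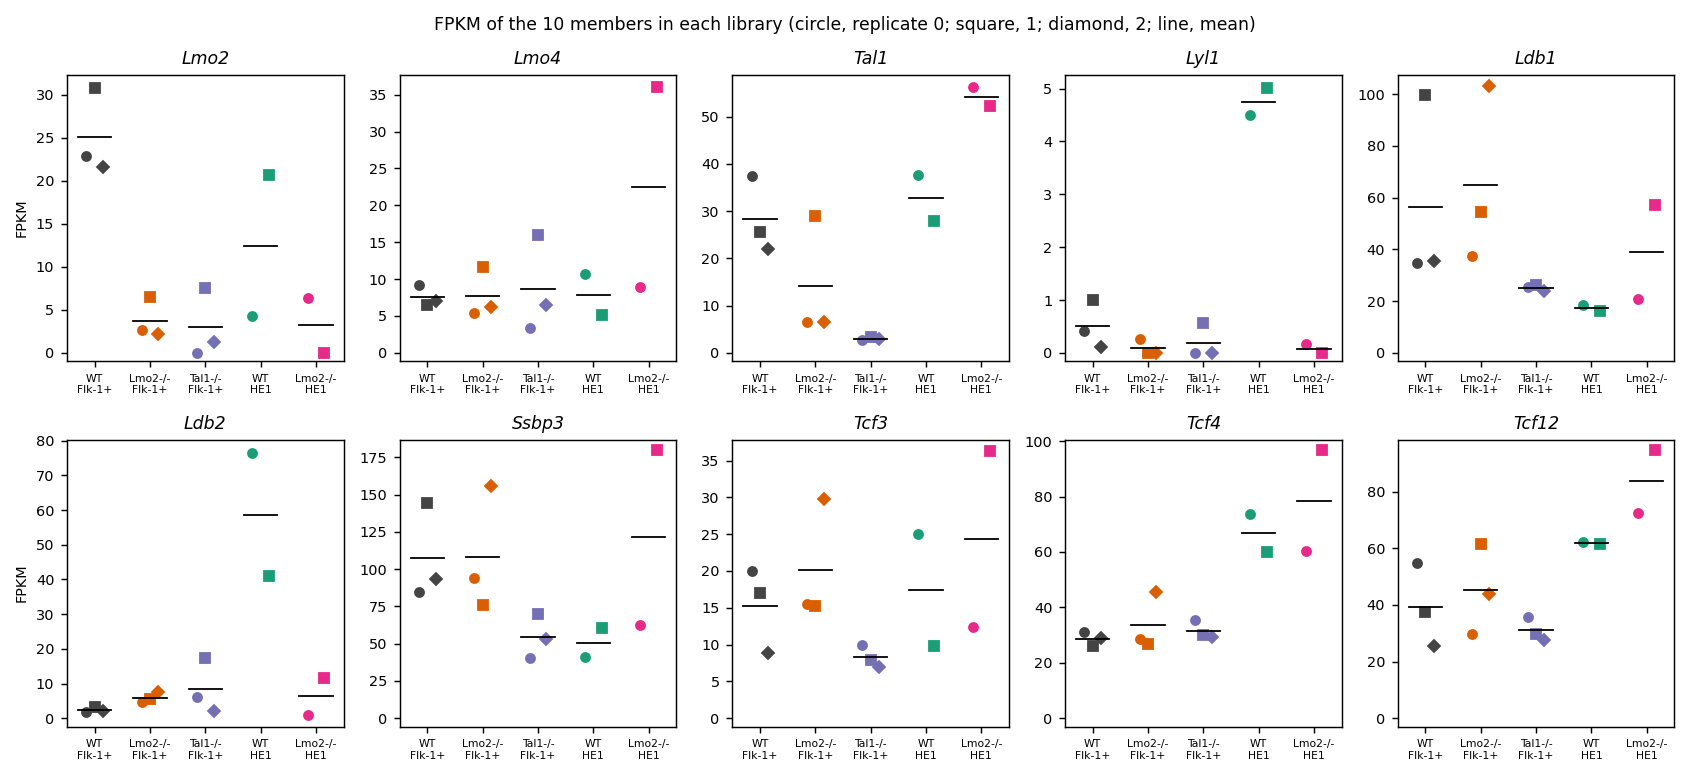
FPKM (linear y axes, a scale for each gene) of the 10 genes in each of the 13 libraries, by group along the x axis; each point is a library, its shape gives the replicate number and the line is the group mean. Lmo2 is low in all mutant Flk-1+ libraries, Lyl1 and Ldb2 are highest in the 2 WT HE1 libraries, and Tcf4 is higher in all HE1 libraries than in all Flk-1+ libraries.

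The paralogues of Lmo2 and Tal1 were not called higher where these were lost, but in Flk-1+ cells they could not be called. Their highest Flk-1+ group means were 8.60 FPKM for Lmo4 and 0.51 FPKM for Lyl1, under the 10 FPKM that a call needs. Lmo4, the other LIM-only gene of the set and known from breast epithelium and neurons, had 9.15, 6.49 and 7.06 FPKM in WT Flk-1+ cells, 5.41, 11.7 and 6.22 in Lmo2-/- and 3.34, 15.9 and 6.54 in Tal1-/-. These ranges overlapped, and the differences of -0.02 (SE 0.58) and -0.05 (SE 0.58) leave room for a change in either direction. In HE1 it read 10.7 and 5.09 FPKM in WT and 8.98 and 36.1 in Lmo2-/-, where the high value is that of replicate 1, the library that stood apart. The difference in HE1 was 1.19 (SE 0.71, limma adjusted p = 0.359), and without that library it was 0.24.

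With Lmo4 in the same range and Lmo2 lower, Lmo4 made up more of the 2 LIM-only messages in the mutant Flk-1+ cells. Lmo4 made up 28.6, 17.4 and 24.6% of the summed FPKM in WT Flk-1+ cells, 67.3, 64.4 and 74.1% in Lmo2-/- and 100, 67.8 and 83.5% in Tal1-/-. The summed level of Lmo2 and Lmo4 was 32.7 ± 4.35 FPKM (SD, n = 3) in WT, 11.5 ± 5.75 (SD, n = 3) in Lmo2-/- and 11.6 ± 10.6 (SD, n = 3) in Tal1-/-. Every mutant sum was below every WT sum, with a difference of -1.77 (SE 0.42) on the log2 scale for both mutants together and an exact permutation p of 0.0238. Lmo2, the targeted gene of Lmo2-/-, made up 71.4, 82.6 and 75.4% of the WT sums. The sum thus mostly repeats the difference in Lmo2 and is no separate test. In HE1 the sums overlapped, at 15.0 to 25.7 FPKM in WT and 15.4 to 36.1 in Lmo2-/-. The Lmo4 share overlapped there too, at 71.3 and 19.8% in WT HE1 and 58.3 and 100% in Lmo2-/- HE1.

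Lyl1, the paralogue of Tal1 that keeps blood progenitors going in adults, was close to absent in Flk-1+ cells. The WT libraries read 0.409, 0.999 and 0.118 FPKM, with 0.260 and 2 listings at 0 in Lmo2-/- and 0.570 and 2 listings at 0 in Tal1-/-. WT HE1 libraries had 4.49 and 5.01 FPKM. Lmo2-/- HE1 had 0.164 FPKM in replicate 0 and a listing at 0 in replicate 1, both below the WT libraries. The HE1 difference was -2.41 (SE 0.42, limma adjusted p = 0.00753), and the adjusted p was 0.0529 without Lmo2-/- HE1 replicate 1 and ran from 0.00408 to 0.291 over 11 alternatives. The difference from Flk-1+ to HE1 in WT was 1.97 (SE 0.38, adjusted p = 0.00579), with adjusted p = 0.0985 at a pseudocount of 0.1. Lyl1 entered the fit only because it was above 1 FPKM in the 2 WT HE1 libraries, so any comparison with WT HE1 had to show a difference and these p-values are no independent test. Neither was a call, because the mean stayed under 10 FPKM. In Lmo2-/- the difference between the stages was -0.0016 (SE 0.38). The test of the genotype difference between the stages gave -1.97 (SE 0.54) and an adjusted p of 0.147, so the stages were not shown to differ. Tal1 remained the main class II message throughout, with Lyl1 at most 15.3% of the 2 in any library. The sum of both was 3.20 ± 0.68 FPKM (SD, n = 3) in Tal1-/- against 28.8 ± 8.07 (SD, n = 3) in WT Flk-1+ cells, a difference of -3.15 (SE 0.28, exact permutation p = 0.10). Tal1, the targeted gene, made up 96.3% or more of each WT Flk-1+ sum, so this repeats the difference in Tal1.

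The 2 genes of the class II family are shown by the 250 bases before their RefSeq starts (GRCm38.p6, plus strand). They were picked since, in FPKM as deposited, the Lmo2-/- HE1 libraries lay above WT for Tal1 and below WT for Lyl1. E-boxes (CANNTG) and GATA motifs (GATA, or TATC on the other strand) are in capitals. The first is chr4:115056176-115056425, which overlaps no annotated gene in GENCODE M21, and the second is chr8:84701207-84701456, inside an intron of Nfix on the opposite strand.
Tal1: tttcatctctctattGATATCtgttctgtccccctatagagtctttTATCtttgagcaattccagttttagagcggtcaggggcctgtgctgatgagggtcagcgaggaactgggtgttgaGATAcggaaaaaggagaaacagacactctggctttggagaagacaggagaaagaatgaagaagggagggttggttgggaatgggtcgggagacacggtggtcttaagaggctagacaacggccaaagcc
Lyl1: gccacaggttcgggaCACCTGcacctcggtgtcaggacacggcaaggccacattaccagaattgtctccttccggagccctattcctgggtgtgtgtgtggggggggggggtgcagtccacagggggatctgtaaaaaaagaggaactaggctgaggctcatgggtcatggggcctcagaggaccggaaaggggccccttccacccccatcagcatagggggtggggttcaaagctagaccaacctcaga
This Tal1 window, 1 of 2 that RefSeq gives for the gene, held 4 GATA or TATC matches, of which 2 overlap as GATATC, and 0 E-boxes. The Lyl1 window held 1 E-box and 0 GATA matches. Of 32817 such windows before RefSeq starts, 66.2% held an E-box, 53.6% a GATA or TATC and 3.215% an E-box with GATA on the same strand 6 to 12 bases further on. RefSeq gave 15 windows for 7 of the 10 genes (Lmo4, Ssbp3, Tal1, Lyl1, Tcf12, Tcf3 and Ldb1), and 0 held that arrangement. These matches describe the letters only.

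Ldb2, on chromosome 5 from 44472132 to 44799680, encodes the LDB1 relative that is known from neurons and endothelium. Among Flk-1+ libraries it read 1.81, 3.22 and 2.06 FPKM in WT, 4.69, 5.52 and 7.59 in Lmo2-/-, and 6.01, 17.3 and 2.20 in Tal1-/-. All Lmo2-/- libraries were above all WT libraries, while the lowest Tal1-/- library fell between WT libraries. The differences were 1.04 (SE 0.70) and 1.16 (SE 0.70), with limma adjusted p = 1 and 0.905 and exact permutation p = 0.10 and 0.20. For both mutants together the difference was 1.10 (SE 0.61), with exact permutation p = 0.0476 and limma adjusted p = 1.

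In HE1 the order of the genotypes was the other way round. Ldb2 had 76.5 and 40.9 FPKM in WT HE1 and 0.846 and 11.7 in Lmo2-/- HE1. Ldb2 was lower in Lmo2-/- by -3.56 (SE 0.86, limma adjusted p = 0.0344), and was the 1 of 10 genes called in this comparison, beside 3.01% of all genes tested. The median of all genes was 0.15 higher in Lmo2-/- HE1, and after rescaling to a common median the Ldb2 difference was -3.71 (adjusted p = 0.0245). The call was kept without Lmo2-/- replicate 1, at -4.95 and adjusted p = 0.0174. It was lost without Lmo2-/- replicate 0 (-2.17, adjusted p = 0.0713), without WT replicate 0 (-3.11, adjusted p = 0.209) and without WT replicate 1 (-4.00, adjusted p = 0.0895), and in 7 of 14 alternatives in all. From Flk-1+ to HE1 in WT, Ldb2 rose by 4.11 (SE 0.78, limma adjusted p = 0.00511), a call kept in 14 of 15 alternatives and lost without WT HE1 replicate 0 (adjusted p = 0.0820). In Lmo2-/- the same step gave -0.50 (SE 0.78, adjusted p = 0.666). The genotype effect differed between the stages by -4.60 (SE 1.11) with limma adjusted p = 0.0952, and by -5.99 with adjusted p = 0.0495 without Lmo2-/- HE1 replicate 1.

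Ldb1, on chromosome 19 from 46031570 to 46045214, is the adaptor on which the complex is usually purified. It read 34.6, 99.6 and 35.5 FPKM in WT Flk-1+ cells, 37.4, 54.3 and 103 in Lmo2-/-, and 25.5, 26.3 and 23.7 in Tal1-/-. The Tal1-/- libraries were tight and all below the lowest WT and Lmo2-/- libraries, with differences of -0.96 (SE 0.48) from WT and -1.21 (SE 0.48) from Lmo2-/-. Neither was called (limma adjusted p = 0.870 and 0.780, exact permutation p = 0.10 for each). HE1 had 18.6 and 16.0 FPKM in WT and 20.97 and 57.3 in Lmo2-/-. In WT both HE1 libraries were below all Flk-1+ libraries, by -1.48 (SE 0.54, limma adjusted p = 0.112), which was called after quantile normalization (-1.89, adjusted p = 0.0196).

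The 2 adaptors thus took different shares of the LDB messages. Ldb2 made up 3.13 to 5.49% of the sum of Ldb1 and Ldb2 in WT Flk-1+ cells, 6.85 to 11.1% in Lmo2-/- and 8.47 to 39.6% in Tal1-/-. In WT HE1 it made up 80.5 and 71.9%, and in Lmo2-/- HE1 3.88 and 17.0%. The sum itself overlapped between the HE1 genotypes, at 56.9 to 95.1 FPKM in WT and 21.8 to 68.9 in Lmo2-/- (difference -0.92, SE 0.91, exact permutation p = 0.667).

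**Figure D2:**
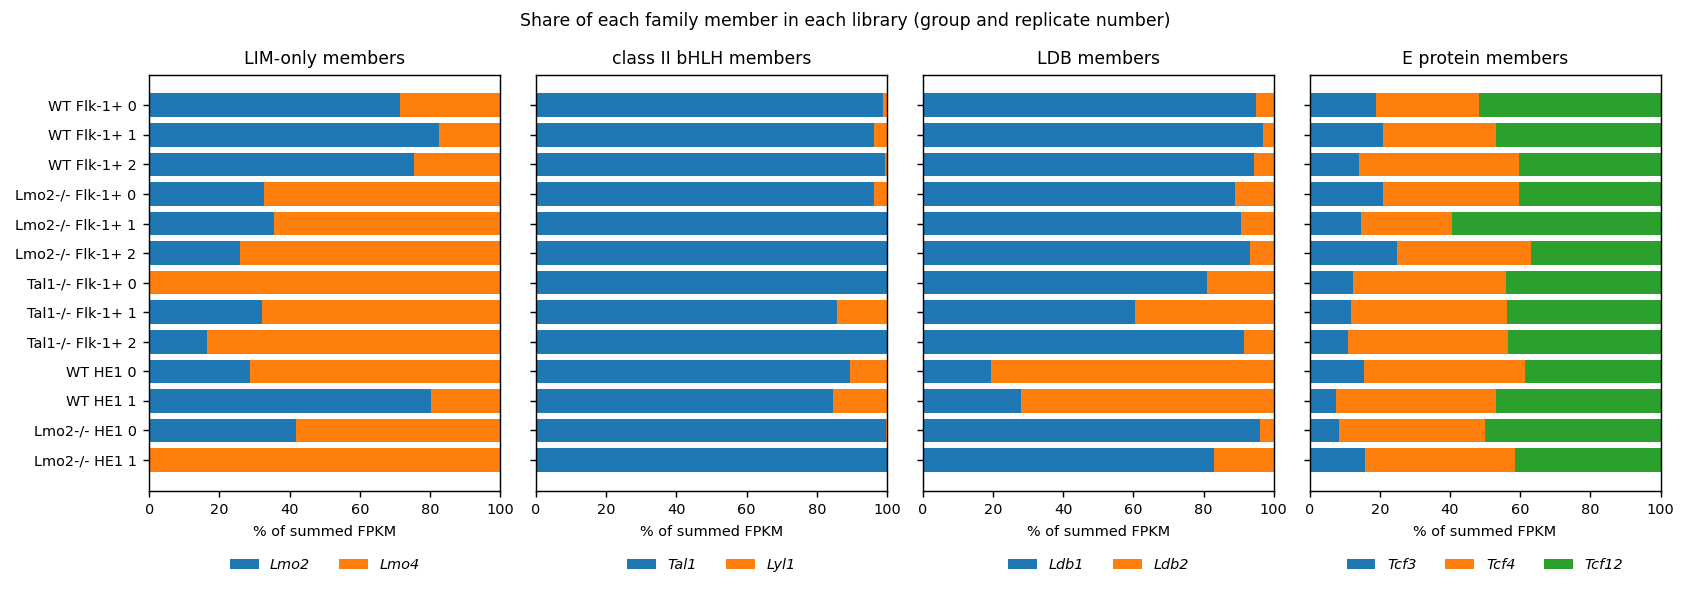
Share of the summed FPKM of each family (x axis, percent) taken by each member, for the 13 libraries named by group and replicate number. Lmo4 takes 64.4% or more of the LIM-only sum in all 6 mutant Flk-1+ libraries, and 71.3% in WT HE1 replicate 0. Ldb2 takes 80.5 and 71.9% of the LDB sum in the 2 WT HE1 libraries, against at most 39.6% elsewhere.

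Ssbp3, which encodes a single-stranded DNA binding protein known to protect LDB1 from degradation, was at a high level in every group. In Flk-1+ cells it had 84.5, 144 and 93.2 FPKM in WT, 94.0, 75.7 and 156 in Lmo2-/- and 40.4, 69.8 and 53.4 in Tal1-/-. As with Ldb1, every Tal1-/- library was below every library of both other genotypes, by -0.96 (SE 0.42) from WT with limma adjusted p = 0.790 and exact permutation p = 0.10. HE1 had 41.0 and 60.5 FPKM in WT and 62.7 and 180 in Lmo2-/-. That difference of 1.08 (SE 0.51) had limma adjusted p = 0.255, and without Lmo2-/- HE1 replicate 1, which holds the high value, it was 0.33.

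The E proteins are the ubiquitous partners of TAL1 and LYL1. Tcf4, which encodes E2-2, had 31.0, 26.0 and 29.0 FPKM in WT Flk-1+ cells, 28.7, 26.7 and 45.4 in Lmo2-/- and 35.3, 30.1 and 29.3 in Tal1-/-. It had 73.8 and 60.1 FPKM in WT HE1 and 60.2 and 96.9 in Lmo2-/- HE1, above every Flk-1+ library. The rise to HE1 was 1.19 (SE 0.33, limma adjusted p = 0.0391) in WT and 1.20 (SE 0.33, adjusted p = 0.0192) in Lmo2-/-, and both were calls. The median of all genes tested rose by 0.11 and 0.30 in these comparisons. After rescaling to a common median the Tcf4 rises were 0.88 and 0.69, and neither was called (adjusted p = 0.102 and 0.140). After quantile normalization they were 0.71 and 0.10. The WT call was also lost without WT HE1 replicate 0 or 1 (adjusted p = 0.277 and 0.125) or WT Flk-1+ replicate 1 or 2 (0.115 and 0.0968), and the Lmo2-/- call without Lmo2-/- HE1 replicate 1 (0.86, adjusted p = 0.152) or Lmo2-/- Flk-1+ replicate 0 or 1 (0.0587 and 0.0581).

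Tcf12, which encodes HEB, followed a like order. Its FPKM was 25.6 to 54.8 in WT Flk-1+ cells, 29.9 to 61.7 in Lmo2-/- and 27.8 to 35.6 in Tal1-/-, and 62.2 and 61.6 in WT HE1 and 72.6 and 94.9 in Lmo2-/- HE1. The differences between stages of 0.70 (SE 0.38) in WT and 0.92 (SE 0.38) in Lmo2-/- were not called (limma adjusted p = 0.287 and 0.0921), and the second was -0.16 after quantile normalization. Tcf3, which encodes E12 and E47, was the lowest of the 3 in 13 of 13 libraries. It read 19.9, 17.0 and 8.92 FPKM in WT Flk-1+ cells, 15.5, 15.3 and 29.8 in Lmo2-/-, and 10.01, 7.91 and 6.92 in Tal1-/-, with every Tal1-/- library below every Lmo2-/- library (-1.14, SE 0.48, limma adjusted p = 0.833, exact permutation p = 0.10). In HE1 it had 25.0 and 9.75 FPKM in WT and 12.4 and 36.3 in Lmo2-/-. Tcf3 made up 7.42 to 25.0% of the E protein sum. That sum was 83.3 ± 21.2 FPKM (SD, n = 3) in WT, 99.0 ± 22.9 (SD, n = 3) in Lmo2-/- and 70.9 ± 8.94 (SD, n = 3) in Tal1-/- Flk-1+ cells, ranges that overlapped. Both HE1 groups had sums above their Flk-1+ counterparts (131 to 161 FPKM in WT, 145 to 228 in Lmo2-/-), with exact permutation p = 0.20 in each genotype, the smallest for 3 against 2. After rescaling to a common median these differences were not 0.84 and 0.91 but 0.52 and 0.38 on the log2 scale (exact permutation p = 0.20 and 0.40).

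Counted over the set, 0 of 10 genes were called by limma in Lmo2-/- against WT Flk-1+ cells, beside 0% of all genes. At an unadjusted p below 0.05 it was 2 (Lmo2 and Tal1), beside 307 of the 13802 genes tested. In Tal1-/- against WT it was again 0 of 10 beside 0% of all genes, and 3 at an unadjusted p (Lmo2, Tal1 and Ssbp3) beside 843. For both mutants together 0 of 10 were called beside 0.00725%, and 2 at an unadjusted p (Lmo2 and Tal1) beside 436. For Tal1-/- against Lmo2-/- it was 0 of 10 beside 0.0145%, and 4 at an unadjusted p beside 822. For the interaction of genotype and stage it was 0 of 10 beside 0.348%, and 3 at an unadjusted p (Tal1, Ldb2 and Lyl1) beside 1672. Lyl1 passed the filter only through WT HE1, so its part in that count is no independent test. Lmo2 and Tal1 are the targeted genes themselves. Lmo4, Lyl1 and Ldb2 could not be called among Flk-1+ groups, where their means stayed under 10 FPKM. Calls over all genes split as 297 higher and 118 lower in Lmo2-/- HE1 (189 and 108 after rescaling), 834 and 130 between stages in WT (518 and 213) and 2379 and 328 in Lmo2-/- (1275 and 490). Between stages 2 of 10 were called in WT (Ldb2 and Tcf4) beside 6.98%, and 2 of 10 in Lmo2-/- (Tal1 and Tcf4) beside 19.6%. At an unadjusted limma p below 0.05 it was 5 in WT beside 3302 of the 13802 genes, and 3 in Lmo2-/- beside 5338. Between the HE1 genotypes it was 2 (Ldb2 and Lyl1) beside 2851. The WT stage and HE1 genotype counts include Lyl1, which had to differ there. Tal1 rose by 2.20 (SE 0.53, limma adjusted p = 0.00915) from Flk-1+ to HE1 in Lmo2-/-, where 2 of 3 Flk-1+ libraries were below the WT range, and differed by 0.22 (SE 0.53) in WT, or -0.09 after rescaling to a common median. The difference of these steps was 1.98 (SE 0.75) with limma adjusted p = 0.297. Tal1 in Lmo2-/- kept its call without Lmo2-/- HE1 replicate 1 (2.26, adjusted p = 0.0414) and lost it after quantile normalization (1.22, adjusted p = 0.148).

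**Figure D3:**
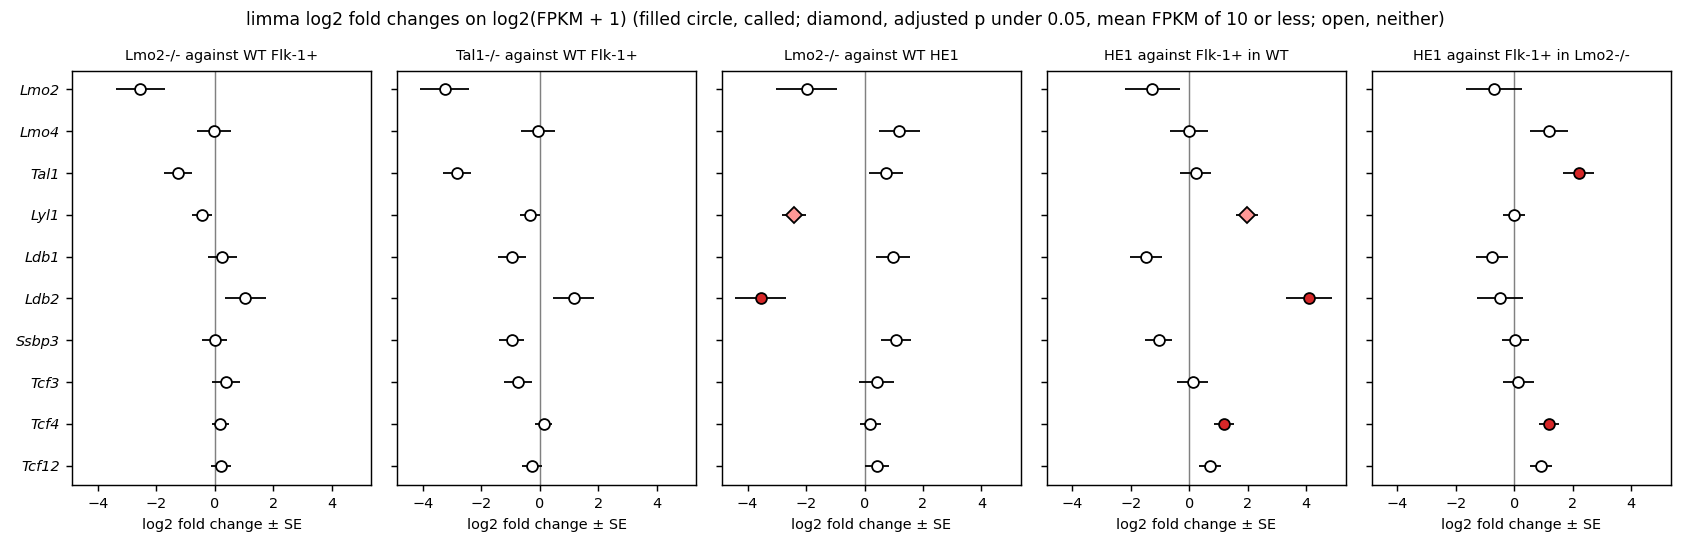
limma log2 fold changes with their SE (x axis) of the 10 genes in 5 comparisons, 1 panel each. Filled circles mark calls, diamonds an adjusted p below 0.05 with a mean of 10 FPKM or less, and open circles neither. In both Flk-1+ panels 0 of 10 genes are called. Ldb2 and Lyl1 are lower in Lmo2-/- HE1, and Ldb2, Lyl1 and Tcf4 are higher in WT HE1 than in WT Flk-1+ cells. Lyl1 passed the filter only through WT HE1 and had to differ there.

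The groups of libraries did not overlap for 2 of 10 genes in Lmo2-/- against WT Flk-1+ cells (Lmo2 and Ldb2), beside 8.21% of all genes. For Tal1-/- against WT they did not for 4 of 10, beside 12.6% of all genes. Lmo2, Tal1, Ldb1 and Ssbp3 were these 4, all lower in Tal1-/-. For both mutants against WT this held for 1 of 10 (Lmo2) beside 2.11%, and for Tal1-/- against Lmo2-/- for 4 of 10 (Tal1, Ldb1, Tcf3 and Ssbp3, all lower in Tal1-/-) beside 13.3%. In HE1 the genotypes did not overlap for 6 of 10 genes beside 39.7%, and the stages for 7 of 10 in WT beside 44.9% and for 3 of 10 in Lmo2-/- beside 47.0%. The median log2 difference of the 10 genes was 0.09 in Lmo2-/- and -0.54 in Tal1-/- Flk-1+ cells, where the median of all genes was -0.01 in each. The Flk-1+ counts and these medians include the targeted genes Lmo2 and Tal1, so they are not a result about the partners alone. The HE1 genotype count and the WT stage count include Lyl1, which passed the filter only through WT HE1 and had to differ there.

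The other paralogues were low. Lmo1, a LIM-only gene activated in T cell leukaemia, had 0.295 to 1.46 FPKM in WT Flk-1+ cells, 0 to 1.71 in Lmo2-/- and 0 to 4.57 in Tal1-/-, and was listed at 0 in all HE1 libraries. Lmo3 was listed at 0 in all 13 libraries. Tal2 had at most 1.11 FPKM in any library and was listed at 0 in all Tal1-/- libraries. Ssbp2 and Ssbp4, relatives of Ssbp3, had at most 14.8 and 7.86 FPKM. Of these 5 genes 3 were tested and 0 called in any of the 8 comparisons. With Lmo1 and Lmo3 added, the LIM-only sum in both mutants together still differed from WT by -1.64 (exact permutation p = 0.0238). That sum still holds Lmo2, the targeted gene of Lmo2-/-, and is no separate test.

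Among the partners that meet the complex on DNA, Fli1, an ETS factor of blood and endothelium, was lower in the mutant Flk-1+ cells. It had 14.0, 11.5 and 9.62 FPKM in WT, 1.20, 0.928 and 0.926 in Lmo2-/- and 0.511, 1.13 and 1.73 in Tal1-/-, with no overlap. For both mutants together the difference was -2.63 (SE 0.31, limma adjusted p = 0.0127), the 1 call of that comparison. For each mutant alone the adjusted p was 0.0580 and 0.0674. With both mutants as 1 group 0 genes were called with the replicate block, with only the groups compared, or without WT replicate 0, WT replicate 1 or Lmo2-/- replicate 2 of the Flk-1+ libraries. Of the 10 partner genes listed, 8 were tested, and none other was called in Flk-1+ cells. Fli1 rose to 72.0 and 79.6 FPKM in WT HE1 (2.61, SE 0.40, adjusted p = 0.00109) and to 50.3 and 35.2 in Lmo2-/- HE1 (4.42, SE 0.40, adjusted p = 2.6e-05). In the Lmo2-/- step the corepressor genes Cbfa2t2 and Runx1t1 also rose, by 1.54 (limma adjusted p = 0.0199) and 3.41 (adjusted p = 0.00374). Runx1t1 had 16.0 and 119 FPKM in Lmo2-/- HE1, the 119 in replicate 1, the library that stood apart. In that step 3 of the 8 partners tested were called, beside 19.6% of all genes. Of 10 tested target genes of the complex, Sox7, Kit and Cdh5 rose to HE1 in both genotypes and Hhex in Lmo2-/- (limma adjusted p = 0.00405 or less), and 0 were called between genotypes at either stage. Kit marks the sort gate, so its rise was selected for. Of the Id genes, which encode inhibitors that take up E proteins, Id3 fell by 2.30 (limma adjusted p = 0.0362) from Flk-1+ to HE1 in Lmo2-/-. It read 6.25, 19.4 and 7.68 FPKM in Lmo2-/- Flk-1+ cells and 3.84 in Lmo2-/- HE1 replicate 0. The listing at 0 in Lmo2-/- HE1 was that of replicate 1, the library that stood apart, and the fall was not tested without it. The other 3 Id genes were not called in any comparison. Of 5 tested LIM homeodomain and LDB1 regulating genes, Lhx1, a LIM homeodomain gene of early mesoderm, fell by 5.98 from Flk-1+ to HE1 in WT and fell by 4.89 in Lmo2-/-, and Rlim, the ubiquitin ligase that acts on LDB1, rose by 2.16 and 2.75 (limma adjusted p = 0.0149 and 0.00188).

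Some marker genes of other cells differed between the HE1 genotypes. The summed FPKM of 8 smooth muscle and fibroblast genes was 184 to 234 in WT HE1 and 405 to 1263 in Lmo2-/- HE1, with 5 of 8 genes at 1 FPKM or more in each and Thy1 at 0 in all. Most of it was Acta2, with 165 and 114 FPKM in WT and 263 and 816 in Lmo2-/-, which was not called between the HE1 genotypes. The 1263 and the 816 are those of Lmo2-/- HE1 replicate 1, the library that stood apart. Of its 7 tested genes 2, Col1a1 and Pdgfrb, were called higher in Lmo2-/-, while Tagln had 50.5 and 53.7 FPKM in WT and 59.0 and 24.1 in Lmo2-/-. Pdgfra had 2.98 and 1.01 FPKM in WT HE1 and 37.3 and 94.5 in Lmo2-/-. The sum of 8 cardiac genes was 12.1 to 26.8 in WT and 132 to 218 in Lmo2-/-, nearly all of the latter from Hand1 (117 and 210 FPKM), the 1 of 7 tested genes that was called. Tnnt2 had 7.80 and 6.57 FPKM in WT and 4.37 and 0 in Lmo2-/-, with Myl4 and Tbx5 at 0 in all 4 HE1 libraries. The sum of 8 haematopoietic genes was 14.5 to 15.9 in WT HE1 and 0 to 20.8 in Lmo2-/-, and 0 to 10.1 in Flk-1+ libraries, with Ptprc and Hba-x at 0 throughout. Pluripotency genes summed to 4.31 to 28.5 in Flk-1+ cells and at most 0.533 in HE1. The endothelial sum of 8 genes was 1119 to 1122 in WT and 962 to 1115 in Lmo2-/-, and Emcn had 7.84 and 8.02 FPKM in WT and was listed at 0 in both Lmo2-/- libraries. In bulk RNA fewer cells of a type and less RNA per cell cannot be told apart, and the part of these cells in the Ldb2 and Lyl1 differences was not tested. In Flk-1+ cells the summed FPKM of 7 haemangioblast genes was 323 to 675 in WT, 235 to 334 in Lmo2-/- and 244 to 346 in Tal1-/-, and its part in the lower Lmo2 and Tal1 was not tested either.

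The genes whose log2(FPKM + 1) followed a member most closely over the 9 Flk-1+ libraries were Utp6, Cops8 and Minos1 for Lmo2 (Pearson r 0.954, 0.934 and 0.932), and Wnk4, Alox12b and Gata2 for Tal1 (0.968, 0.964 and 0.963). For Ldb2 they were Gid4, Jph1 and Hdac4 (0.924, 0.910 and 0.897), and for Lyl1, which is near 0 in these cells, Rragc, Trub2 and Tbc1d2b (0.906, 0.885 and 0.880). They are the highest of 4962 genes and share the libraries and group differences, so they are a description. Gata2, whose product is the GATA factor of the complex in early cells, had 31.4, 12.6 and 6.93 FPKM in WT Flk-1+ cells, 3.44, 9.78 and 3.24 in Lmo2-/- and 0.501, 1.05 and 0.997 in Tal1-/-. As for Tal1, the highest Lmo2-/- library was replicate 1.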

How the data were processed

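Libraries of TruSeq stranded mRNA, 9 from Flk-1+ cells of 3 genotypes and 4 from HE1 of 2, gave the data. The authors mapped reads with TopHat 2.0.9 to mm10 and assembled transcripts with Cufflinks 2.0.0, and deposited FPKM per library from Cuffnorm. The deposited table of means per condition gave the gene names and loci, and its means were not tested. A table of the authors' Cuffdiff fold changes and p-values was not used. Each column was taken as 1 replicate library of the group it names.

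Genes whose locus exceeded 200 bp and that reached 1 FPKM in 2 or more libraries were tested with limma 3.58.1 (R 4.3.3), with a trend and group as factor, on log2(FPKM + 1) of all 13 libraries. The 10 genes and the sums of 4 families had two-sided exact permutation tests in 7 comparisons (scipy 1.17.1), not adjusted for their number. The fit was checked on simulated data.

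The genes and lists were chosen with earlier results of these data known. Named genes were all 10 members, 5 other paralogues, listed genes that were called or define a group, and the 3 genes most like 4 members. Alternatives were another pseudocount, other filters, separate fits, rescaling to a common median, quantile normalization, no trend, array weights, a replicate block, and each library left out. ChIP and DNase data were not analysed here.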

Additional observations from a re-analysis of the deposited data

Results flagged for a closer look

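Ldb2 is listed here because the Lmo2-/- libraries lay on opposite sides of WT at the 2 stages. All 3 Lmo2-/- Flk-1+ libraries (4.69 to 7.59 FPKM) were above all 3 WT libraries (1.81 to 3.22), and both Lmo2-/- HE1 libraries (0.846 and 11.7) were below both WT libraries (40.9 and 76.5). The genotype effect in HE1 minus that in Flk-1+ cells was -4.60 (SE 1.11) on the log2 scale. The limma test of this difference did not pass after adjustment over all genes (adjusted p = 0.0952), and ran from 0.0495 to 0.348 over its alternatives.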

How the results depend on the processing

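Values are log2 differences or numbers of the 10 genes called. Lyl1 passed the filter only through WT HE1, so its calls in comparisons with WT HE1 are no independent test. In Lmo2-/- against WT and Tal1-/- against Lmo2-/- Flk-1+ cells, 0 genes were called under every alternative. In Tal1-/- against WT, 1 (Tal1) was called with quantile normalization and with array weights. For both mutants together, 1 (Tal1) was called with array weights, and leaving out a library gave 0 to 1. In HE1, 0 were called with a pseudocount of 0.1, without the FPKM filter, with only the groups compared and with array weights, and 2 (Ldb2 and Lyl1) without the FPKM criterion. There 0 to 2 were called without a library, 0 without either WT HE1 library and 2 (Lmo2 and Ssbp3) without Lmo2-/- HE1 replicate 0. Between stages in WT, 1 (Ldb2) was called after rescaling, without the trend and with the replicate block, 3 with quantile normalization (Ldb2, and lower in HE1 Ldb1 and Ssbp3, but not Tcf4), 3 without the FPKM criterion (Lyl1 added), and 0 to 2 without a library, 0 without WT HE1 replicate 0. In Lmo2-/-, 1 was called with quantile normalization (Ldb1, lower in HE1, with Tal1 and Tcf4 lost) and 1 after rescaling (Tal1), 0 with only the groups compared and with array weights, and 1 to 3 without a library, 1 (Tal1) without Lmo2-/- HE1 replicate 1 and 3 (Lmo4 added) without Lmo2-/- HE1 replicate 0. The interaction gave 0 to 1, the 1 being Ldb2 without Lmo2-/- HE1 replicate 1. The class II bHLH sum (Tal1 and Lyl1) in both mutants together (exact permutation p = 0.0714) ran from -2.72 (p = 0.0357, without Lmo2-/- Flk-1+ replicate 1) to -2.04 when a library was left out. That sum was mostly Tal1, the targeted gene of Tal1-/-. Over all genes the calls ranged from 0 to 8 for both mutants together, 0 to 2177 in HE1, 323 to 1682 between stages in WT and 976 to 3836 in Lmo2-/-.

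All values that changed sign were uncalled. With rescaling to a common median the sign turned in both mutants against WT Flk-1+ cells for E protein sum (-0.012), in Lmo2-/- against WT HE1 for Tcf4 (-0.034), in the stages in WT for Tcf3 (-0.19) and Tal1 (-0.087), in the stages in Lmo2-/- for Tcf3 (-0.36) and Ssbp3 (-0.48), in the interaction for Tcf3 (-0.17) and Tcf4 (-0.20). With quantile normalization the sign turned in Lmo2-/- against WT Flk-1+ cells for Ssbp3 (0.055), in Lmo2-/- against WT HE1 for Tcf3 (-0.034), Tcf4 (-0.39) and Tcf12 (-0.16), in the stages in WT for Tcf3 (-0.33) and Tal1 (-0.28), in the stages in Lmo2-/- for Tcf3 (-0.80), Ssbp3 (-0.98), Lyl1 (0.43) and Tcf12 (-0.16), in the interaction for Tcf3 (-0.46), Tcf4 (-0.61) and Tcf12 (-0.38). With array weights the sign turned in Lmo2-/- against WT Flk-1+ cells for Ssbp3 (0.18), in both mutants against WT Flk-1+ cells for Tcf3 (0.15) and Tcf12 (0.16), in Tal1-/- against Lmo2-/- Flk-1+ cells for Lmo4 (0.050) and Ldb2 (-0.14), in the stages in WT for Lmo4 (0.045), in the stages in Lmo2-/- for Tcf3 (-0.0028) and Ssbp3 (-0.13), in the interaction for Tcf3 (-0.39) and Tcf4 (-0.12). With pseudocount 0.1 the sign turned in the stages in Lmo2-/- for Lyl1 (0.084), in the interaction for Lmo2 (-0.71). When each library was left out in turn, the sign turned for the following ranges. In Lmo2-/- against WT Flk-1+ cells LDB sum -0.052 to 0.82, Tcf4 -0.043 to 0.33, Ldb1 -0.14 to 0.75, Lmo4 -0.32 to 0.17, Ssbp3 -0.30 to 0.22 and Tcf12 -0.069 to 0.47. In Tal1-/- against WT Flk-1+ cells Lmo4 -0.57 to 0.41. In both mutants against WT Flk-1+ cells LDB sum -0.42 to 0.33, E protein sum -0.16 to 0.21, Tcf3 -0.51 to 0.030, Ldb1 -0.61 to 0.14, Lmo4 -0.30 to 0.20 and Tcf12 -0.31 to 0.23. In Tal1-/- against Lmo2-/- Flk-1+ cells LIM-only sum -1.07 to 0.34, Tcf4 -0.19 to 0.18, Lmo2 -1.54 to 0.0057, Lmo4 -0.55 to 0.43, Ldb2 -0.53 to 0.73 and Lyl1 -0.11 to 0.22. In Lmo2-/- against WT HE1 LIM-only sum -0.35 to 0.88, E protein sum -0.0026 to 0.65, Tcf3 -0.32 to 1.16 and Tcf4 -0.14 to 0.54. In the stages in WT Tcf3 -0.53 to 0.75 and Lmo4 -0.48 to 0.46. In the stages in Lmo2-/- LDB sum -1.58 to 0.078, Tcf3 -0.60 to 0.88, Lmo2 -2.14 to 0.75, Ssbp3 -0.71 to 0.79, Ldb2 -1.89 to 0.89 and Lyl1 -0.11 to 0.11. In the interaction Tcf3 -0.71 to 0.78, Tcf4 -0.33 to 0.35, Lmo2 -0.87 to 2.02 and Tcf12 -0.047 to 0.49. The cause was not tested. Of 1296 values of single genes under an alternative, 1162 kept their direction and their side of the threshold and 95 changed sign.

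Replicate numbers come from the column names, and same-numbered libraries did not deviate together in every pair of groups (correlations from -0.184 to 0.169). In Flk-1+ cells these were all negative for WT with Lmo2-/- and all positive, 0.074 to 0.169, for WT with Tal1-/-. Deviations from means of 2 or 3 libraries cannot settle whether same-numbered libraries share more than a number. The replicate block changed 1 call among the 10 genes, that of Tcf4 between stages in WT (adjusted p = 0.0670). Where 1 HE1 library was left out, the remaining one was assumed to vary like the other groups. Without counts no depth limit can be given, and 3 against 3 libraries cannot reach an exact p below 0.10.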
